A study of Mus musculus with 10 samples.

Results

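The 10 genes described here mark the endothelium, the cell layer that lines blood vessels, and the blood-brain barrier that this layer forms in the brain. They were taken by symbol, through Entrez gene IDs, from a count table of mouse embryonic midbrain (embryonic day 14.5), and all 10 were found among its 30935 IDs. Endothelial cells grow into the neural tube from outside, drawn by vascular endothelial growth factor (VEGF) made by neural progenitors, and are kept in place by angiopoietin signals through Tie receptors. Wnt ligands from the neural tissue then switch the vessels to the barrier state: tight junctions seal the gaps between cells, transporters for glucose, lipids and hormones are switched on, and the windows of leaky vessels are lost. In the midbrain at this age the vessel network is in place and the barrier is being built.

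The wild-type group held 5 libraries (numbered 1, 2, 4, 5 and 6) from Rbfox1 +/+ embryos, and the deletion group held 5 libraries (2, 3, 4, 5 and 6) from embryos homozygous for ΔHAR.321, a deletion in the Rbfox1 locus that the labels also call 2xHAR.321 Knockout. A human accelerated region (HAR) is a sequence conserved among vertebrates that changed fast on the human lineage, and Rbfox1 encodes a neuronal splicing regulator. The samples were described as independent and biological. Strain, litter, sex, library batch and how the deletion was made were not given in the sources used here.

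Each library held 16246892 to 20255728 counts. Levels are given in CPM, counts scaled to one fixed library total, after TMM scaling, which brings libraries to a common scale through the bulk of their genes. Differences are given as log2 ratios (log2 fold changes), deletion over wild-type, from the fit. The midbrain genes En1, En2 and Otx2 stood at no less than 54.9, 111 and 122 CPM in every library, while the hindbrain gene Hoxb2 was at 0. Rbfox1 ran from 140 to 166 CPM over wild-type and from 147 to 181 CPM over deletion libraries. Where the deleted element lies relative to the counted exons was not worked out, so this level does not check the labels. The quasi-likelihood test of edgeR, with p-values adjusted over all 15288 genes tested, called 9 genes at 0.05.

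The promoters of the 3 receptor kinases among the genes, Kdr, Flt1 and Tek, are shown because their levels varied together across libraries, and those of Cldn5 and Slc2a1 because they were the most abundant members for their length. Each is the 250 bases upstream of the gene's start, 5′ to 3′ on the gene's strand, from RefSeq on GRCm38.p6. The counts were made on another build (mm39) and carry no positions. Capitals mark GGAA or its reverse complement TTCC, the core bound by ETS factors, a family that drives many endothelial genes. RefSeq windows were matched for 7 of the 10 genes.
Kdr, chr5:75978456-75978705, minus strand: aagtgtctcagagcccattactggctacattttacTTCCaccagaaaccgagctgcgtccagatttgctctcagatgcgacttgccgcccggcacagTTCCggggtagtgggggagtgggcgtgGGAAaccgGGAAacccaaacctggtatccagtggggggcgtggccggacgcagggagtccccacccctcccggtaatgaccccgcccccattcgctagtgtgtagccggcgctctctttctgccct
Flt1, chr5:147726012-147726261, minus strand: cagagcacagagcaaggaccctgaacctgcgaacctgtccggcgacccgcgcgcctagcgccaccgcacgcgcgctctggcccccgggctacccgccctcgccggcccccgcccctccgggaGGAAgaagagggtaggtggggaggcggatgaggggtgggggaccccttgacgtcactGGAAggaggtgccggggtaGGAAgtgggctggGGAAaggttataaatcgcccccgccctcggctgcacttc
Tek, chr4:94739039-94739288, plus strand: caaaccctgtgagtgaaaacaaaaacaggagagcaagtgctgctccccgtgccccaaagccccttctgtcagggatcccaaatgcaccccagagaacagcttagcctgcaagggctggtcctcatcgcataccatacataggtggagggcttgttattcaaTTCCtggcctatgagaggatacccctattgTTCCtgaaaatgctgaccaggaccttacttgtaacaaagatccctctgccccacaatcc
Cldn5, chr16:18776597-18776846, plus strand: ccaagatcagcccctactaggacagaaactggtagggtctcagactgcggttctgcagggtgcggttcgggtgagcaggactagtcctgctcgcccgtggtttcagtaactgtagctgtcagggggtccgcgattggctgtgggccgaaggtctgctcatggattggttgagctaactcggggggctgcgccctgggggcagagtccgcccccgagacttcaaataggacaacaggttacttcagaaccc
Slc2a1, chr4:119108495-119108744, plus strand: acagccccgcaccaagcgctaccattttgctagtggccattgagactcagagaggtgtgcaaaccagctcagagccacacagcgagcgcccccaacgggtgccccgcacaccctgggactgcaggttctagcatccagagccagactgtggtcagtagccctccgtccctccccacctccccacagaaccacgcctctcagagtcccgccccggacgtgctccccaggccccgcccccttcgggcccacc

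Searched on both strands, the ETS core occurred 4 times each in the Kdr and Flt1 windows and 2 times in the Tek window, and not in the Cldn5 and Slc2a1 windows. Of 32851 RefSeq windows of the same length, 93.4% hold it, so its presence sets no gene apart. Slco1c1 held 8 matches and Mfsd2a 2. The Flt1 window was the only 1 of the 7 with the letters TATAAA (in 12.4% of all windows) and with the cAMP response element TGACGTCA (in 1.55%). The GC box GGGCGG, in 32.7% of all windows, occurred in Kdr, Flt1, Cldn5 and Slc2a1 (2, 3, 1 and 2 matches). The hypoxia response core ACGTG, in 16.6%, occurred 1 time in Slc2a1 and 2 times in Mfsd2a. The TCF/LEF core CTTTGA, in 13.8%, occurred 1 time, in Mfsd2a. TGACGTCA overlaps neither TATAAA nor the ETS core by its letters. These are matches of letters and not shown to be bound.

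None of the 10 genes passed edgeR's test between the groups, where 0.0589% of all genes tested did. At an unadjusted p under 0.05 the count was also 0 of 10, against 10.5% of all genes (5.62% higher and 4.92% lower in the deletion group). DESeq2 gave an adjusted p for 6 of them and called 0, against 3.23% of all genes that it gave one, and limma-voom called 0 of the 10 and 0.00% of all genes. All 10 had passed the filter on low counts. The wild-type and deletion libraries overlapped for every member, while 2.49% of all genes tested had groups that did not. Of the 10, 5 had a log2 ratio above 0 and 5 below, with a median log2 ratio of 0.03 against -0.0024 over all genes. The size of that ratio, whatever its sign, had a median of 0.12 for the 10 genes and 0.10 for all genes. The 95% intervals of the log2 ratios reached no further from 0 than 0.57, a bound set by Plvap, the least abundant member. In bulk tissue, fewer endothelial cells and less RNA per endothelial cell cannot be told apart, and this holds for every value below.

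**Figure D1:**
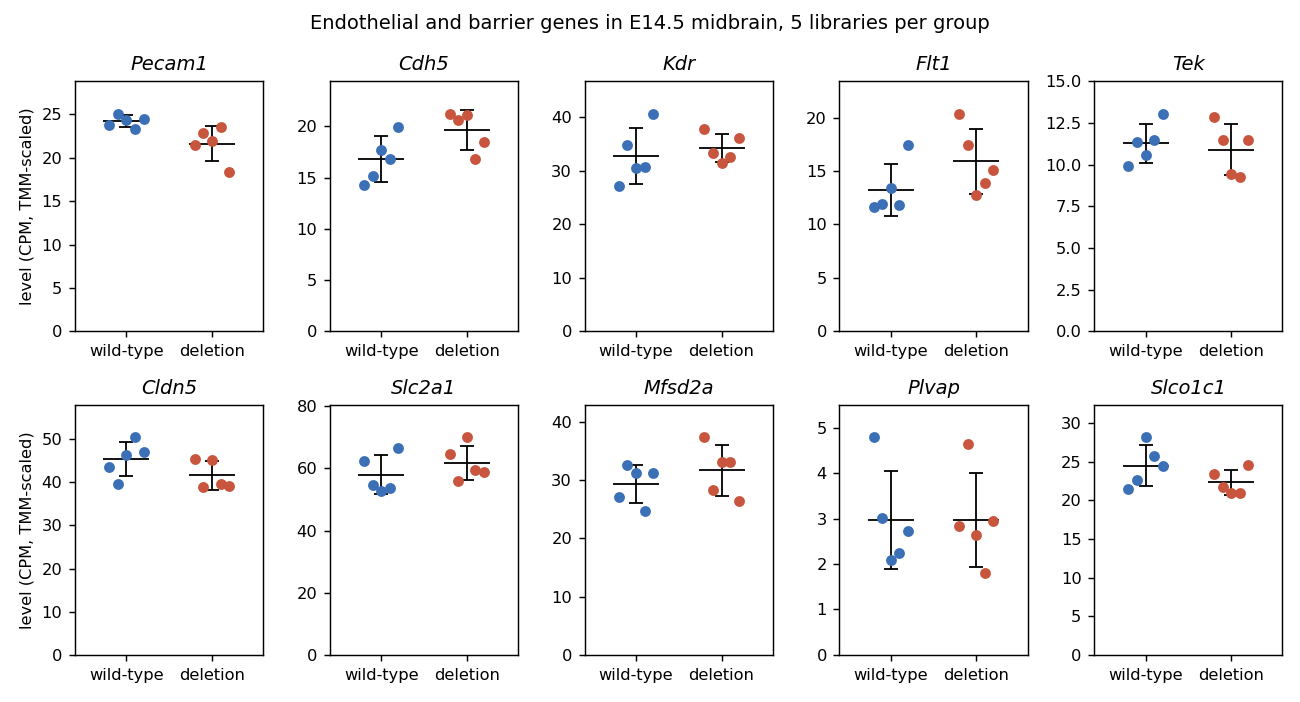
Level of each gene (CPM, TMM-scaled, axes from 0) in every library, with 5 wild-type libraries in blue and 5 deletion libraries in red; black bars are the mean and SD. The groups overlap in each panel, and Pecam1 has the narrowest wild-type spread (23.3 to 25.1 CPM).

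The pan-endothelial junction genes came first, and they leaned in opposite directions. Pecam1 (Entrez gene 18613), which encodes the adhesion molecule CD31 of endothelial cell contacts, stood at 23.8, 25.1, 24.4, 23.3 and 24.5 CPM in wild-type 1, 2, 4, 5 and 6. Its values in deletion 2, 3, 4, 5 and 6 were 21.5, 22.9, 22.0, 23.5 and 18.3 CPM. Every deletion value was under the wild-type mean, and of the 5 only deletion 5 reached into the wild-type range. Its log2 ratio was -0.16 (SE 0.09, 95% interval -0.35 to 0.03) and did not pass edgeR's test (adjusted p = 0.569). Without deletion 6 it was -0.11. Pecam1 is also made by platelets and their precursors. The summed level of 6 platelet markers was 3.70 to 7.93 CPM over wild-type and 1.44 to 5.06 CPM over deletion libraries. Of these 6, only Itga2b had a mean of 1 CPM or more, and Pf4 and Ppbp reached at most 1.72 and 0.861 CPM. Their part in the Pecam1 values was not tested.

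Cdh5 (Entrez gene 12562), the VE-cadherin gene of adherens junctions, stood at 14.3, 15.2, 17.7, 16.8 and 20.0 CPM in wild-type 1, 2, 4, 5 and 6. In deletion 2, 3, 4, 5 and 6 it stood at 21.2, 20.6, 21.1, 16.8 and 18.4 CPM. Every deletion library lay above the wild-type mean, and 2 of them fell within the wild-type range. With a log2 ratio of 0.23 (SE 0.11, 95% interval -0.0041 to 0.46), Cdh5 had the smallest p of the 10 genes, and it did not pass in edgeR (unadjusted p = 0.0539, adjusted p = 0.486). Pecam1 and Cdh5 are both textbook markers of all endothelium, and these values do not show them moving together.

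Among the receptors, Flt1 had the largest log2 ratio and also the widest spread after Plvap. Flt1 (Entrez gene 14254) encodes VEGF receptor 1, much of which acts as a decoy that holds VEGF away from its main receptor. Its level was 11.6, 11.9, 13.4, 11.9 and 17.5 CPM in wild-type 1, 2, 4, 5 and 6, and 20.4, 17.5, 12.7, 13.9 and 15.1 CPM in deletion 2, 3, 4, 5 and 6. Wild-type 6 was as high as deletion 3, and deletion 4 lay below the wild-type mean. The log2 ratio was 0.26 (SE 0.14, 95% interval -0.03 to 0.56, edgeR adjusted p = 0.540). It was 0.16 without deletion 2, 0.17 after removal of each library's trend on length and GC content, and 0.38 without wild-type 6, and it passed in none of these fits.

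Kdr (Entrez gene 16542) encodes VEGF receptor 2, which carries the main growth signal of VEGF. It stood at 27.1, 34.9, 30.4, 30.8 and 40.7 CPM in the wild-type libraries, in the same order, and at 37.8, 33.3, 31.4, 32.5 and 36.1 CPM in deletion 2, 3, 4, 5 and 6. All 5 deletion libraries lay within the wild-type range. This gave a log2 ratio of 0.06 (SE 0.10, 95% interval -0.15 to 0.27, edgeR adjusted p = 0.887), and its sign turned after removal of the length and GC trend (-0.015).

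Tek (Entrez gene 21687) encodes Tie2, the receptor of the angiopoietins. It stood at 9.94, 11.4, 10.6, 11.5 and 13.1 CPM in wild-type 1, 2, 4, 5 and 6 and at 12.9, 11.5, 9.42, 9.27 and 11.5 CPM in deletion 2, 3, 4, 5 and 6. Deletion 4 and 5 were the lowest of all 10 libraries, and wild-type 6 and deletion 2 the highest. The log2 ratio was -0.05 (SE 0.13, 95% interval -0.32 to 0.22, edgeR adjusted p = 0.935), and 0.0033 without wild-type 6.

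For the barrier genes, too, the groups differed within the spread of the libraries. Cldn5 (Entrez gene 12741) encodes claudin-5, the main sealing protein of tight junctions in brain endothelium. It stood at 43.6, 39.6, 46.4, 50.4 and 47.0 CPM in wild-type 1, 2, 4, 5 and 6 and at 45.3, 38.8, 45.1, 39.6 and 39.1 CPM in deletion 2, 3, 4, 5 and 6. Every deletion value was under the wild-type mean, with 2 of 5 inside the wild-type range and deletion 5 just under its lower end. This gave a log2 ratio of -0.13 (SE 0.08, 95% interval -0.30 to 0.04, edgeR adjusted p = 0.635), and -0.03 with the trend on transcript length removed. Cldn5 has the shortest transcript of the 10 genes, at 1416 bases, and Flt1 the longest, at 6895 bases. A slope was taken of each library's log2 CPM, relative to the mean of all libraries, on log2 transcript length. It ran from -0.061 to -0.0098 (median -0.042) among wild-type and from -0.055 to 0.10 (median 0.041) among deletion libraries. Its part in the Cldn5 and Flt1 values was not tested beyond the fits with the trend removed.

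Slco1c1 (Entrez gene 58807), the transporter of thyroid hormone into the brain, stood at 21.4, 22.6, 28.1, 25.7 and 24.4 CPM in wild-type 1, 2, 4, 5 and 6 and at 23.3, 21.7, 21.0, 20.9 and 24.5 CPM in deletion 2, 3, 4, 5 and 6. Deletion 4 and 5 fell just under the wild-type range, and the other 3 lay within it. It leaned the same way as Cldn5, with 4 of 5 deletion libraries below the wild-type mean (log2 ratio -0.13, SE 0.10, 95% interval -0.33 to 0.07, edgeR adjusted p = 0.679), and the ratio was -0.078 without wild-type 4.

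Slc2a1 (Entrez gene 20525) encodes GLUT1, the glucose transporter of the barrier, and is also made by red blood cells and neural progenitors. Its level was 62.2, 54.7, 52.7, 53.7 and 66.7 CPM in wild-type 1, 2, 4, 5 and 6 and 64.6, 55.9, 70.0, 59.4 and 58.8 CPM in deletion 2, 3, 4, 5 and 6. Only deletion 4 lay above the wild-type range, and the other 4 lay within it. The log2 ratio was 0.09 (SE 0.08, 95% interval -0.08 to 0.26, edgeR adjusted p = 0.767), and 0.040 without deletion 4. The summed level of 8 red cell markers ran from 1605 to 2430 CPM over wild-type and from 2114 to 2846 CPM over deletion libraries. The highest sum and the highest Slc2a1 level were both in deletion 4. The lowest sum was in wild-type 1, where Slc2a1, at 62.2 CPM, was above its wild-type mean of 58.0 CPM. The summed level of 9 neural progenitor markers ran from 1186 to 1539 and from 1115 to 1584 CPM. The part of these cells in the Slc2a1 level was not tested.

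Mfsd2a (Entrez gene 76574), which carries the omega-3 lipid DHA into the brain and restrains transport by vesicles across the endothelium, stood at 27.1, 32.5, 31.2, 24.6 and 31.1 CPM in the wild-type libraries. Its deletion values were 37.3, 28.3, 33.0, 33.1 and 26.5 CPM, with deletion 2 the highest of all libraries, 3 of 5 above the wild-type range and 2 within it. This gave a log2 ratio of 0.11 (SE 0.10, 95% interval -0.10 to 0.33, edgeR adjusted p = 0.773), and 0.042 without deletion 2 or 0.050 without wild-type 5.

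Plvap (Entrez gene 84094) encodes a protein of the diaphragms in leaky, windowed vessels and is lost as the barrier forms. It was the lowest member, with 34 to 92 counts per library. Wild-type 1 held 4.79 CPM and wild-type 2, 4, 5 and 6 held 3.01, 2.10, 2.25 and 2.73 CPM. Deletion 3 held 4.64 CPM and deletion 2, 4, 5 and 6 held 2.83, 2.63, 1.81 and 2.94 CPM. Each group thus had 1 high library, and both means were 2.97 CPM (SD 1.08 for wild-type, 1.03 for deletion, n = 5 each). The log2 ratio was -0.0050 (SE 0.27, 95% interval -0.57 to 0.56, edgeR adjusted p = 0.998), an interval that spans ratios of 0.676 to 1.47. It was 0.23 without wild-type 1 and -0.23 without deletion 3, the high library of each group. In RefSeq, Plvap overlaps Gtpbp3, a gene at 13.8 to 21.2 CPM. Whether counting used strand is not given in the sources used here, so reads of the pair cannot be told apart where they overlap.

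**Figure D2:**
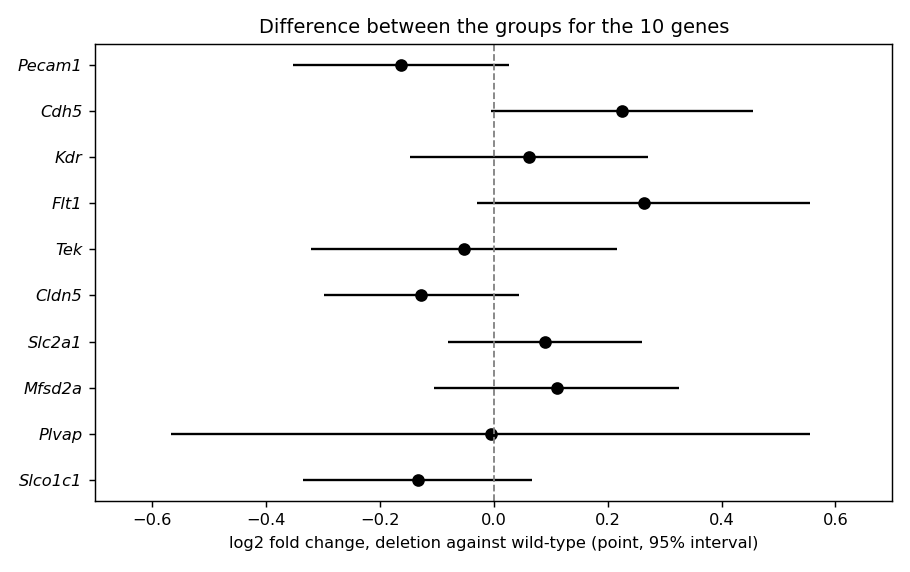
Log2 ratio of each gene, deletion against wild-type (point), with its 95% interval from edgeR (line). Each interval includes 0, and that of Plvap is the widest (-0.57 to 0.56).

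Levels can be compared between genes only per length, so each CPM was divided by the length of the gene's longest annotated transcript in kb. On that scale the barrier genes led. Cldn5 had the highest wild-type level, at 32.1 ± 2.86 CPM per kb (SD, n = 5), followed by Slc2a1 at 17.8 ± 1.88 and Mfsd2a at 13.6 ± 1.55 CPM per kb. The wild-type ranges of these 3 did not overlap, and the order held in each of the 10 libraries. Next came Slco1c1 at 7.70 ± 0.828, Pecam1 at 7.04 ± 0.198, Kdr at 5.53 ± 0.881 and Cdh5 at 4.20 ± 0.556 CPM per kb. Neighbours among these 4 had overlapping wild-type ranges: Slco1c1 lay above Pecam1 in 7 of 10 libraries and Pecam1 above Kdr in 8, whereas Kdr lay above Cdh5 in each of the 10. Tek, Flt1 and Plvap were lowest, at 2.42 ± 0.252, 1.92 ± 0.356 and 1.50 ± 0.542 CPM per kb. Cdh5 did not overlap Tek, while Tek overlapped Flt1 and Flt1 overlapped Plvap. Which transcripts of a gene were made was not measured, and Flt1 is known to have a shorter soluble form. Plvap counts had a median of 5.80% of the Cldn5 counts over wild-type and 6.25% over deletion libraries.

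**Figure D3:**
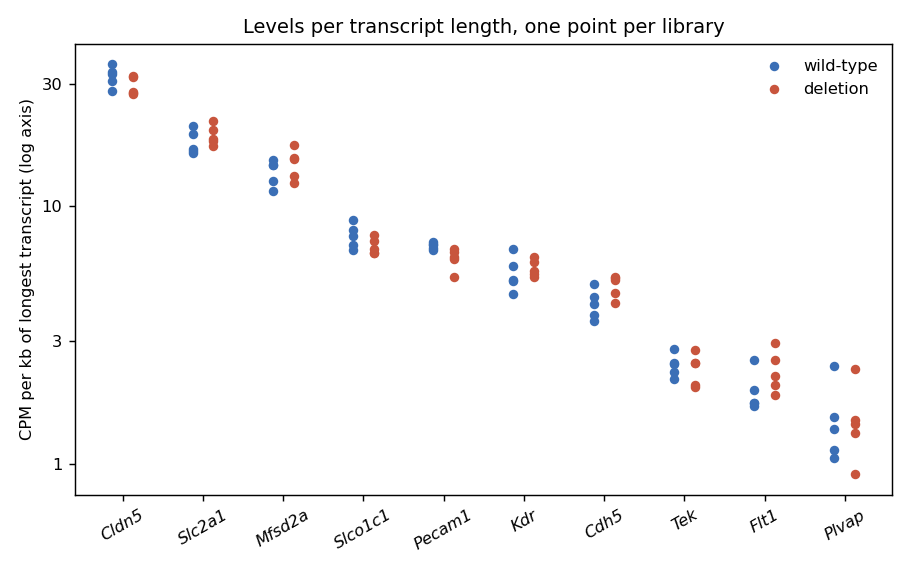
Level per length (CPM per kb of the longest transcript, log axis) of the 10 genes in order of their wild-type mean, with 1 point per library (wild-type blue, deletion red). In the wild-type libraries Cldn5, Slc2a1 and Mfsd2a lie apart at the top, and Tek, Flt1 and Plvap overlap at the bottom. With the deletion libraries included, the points of Slc2a1 and Mfsd2a overlap.

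The spread between libraries differed from gene to gene. In the wild-type group the coefficient of variation was 2.82% for Pecam1 and 8.91% for Cldn5, against 18.5% for Flt1 and 36.2% for Plvap. In the deletion group it was 9.26% for Pecam1, with deletion 6 the lowest library. For Kdr it was 15.9% over wild-type and 7.64% over deletion libraries.

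How the genes varied together was described by the correlation of their log2 CPM over the 10 libraries after the group means were subtracted. These libraries share the group means and the scaling, and the values are given with no test. The 3 receptor kinase genes varied together: Pearson's r was 0.85 for Flt1 and Tek, 0.81 for Kdr and Tek, and 0.74 for Kdr and Flt1. Leaving out any 1 library kept r at 0.78 or more, 0.77 or more and 0.52 or more for these pairs. Wild-type 6 and deletion 2 were the highest libraries of their groups for all 3 genes. Without both of them r was 0.64, 0.69 and 0.27 over 8 libraries. Cdh5 followed Flt1 (r = 0.66), Cldn5 (0.60), Tek (0.58) and Kdr (0.55). Without those 2 libraries r fell to 0.31 with Flt1 and 0.02 with Kdr, and was 0.57 with Cldn5.

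Pecam1 had an r between -0.27 (Tek) and 0.04 (Cdh5) against the 5 other pan-endothelial genes. Single libraries moved these values: without deletion 6 its r was -0.81 with Cldn5 and -0.32 with Cdh5, and without deletion 5 it was 0.37 with Cdh5. Its highest r was 0.54, with Mfsd2a (0.17 without deletion 6), and its lowest -0.50, with Slco1c1. Among the barrier genes r was 0.39 for Cldn5 and Slc2a1, 0.35 for Slc2a1 and Mfsd2a, 0.09 for Cldn5 and Mfsd2a, and -0.39 for Slc2a1 and Slco1c1. Plvap had an r of -0.37 with Cldn5 and -0.43 with Slco1c1.

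**Figure D4:**
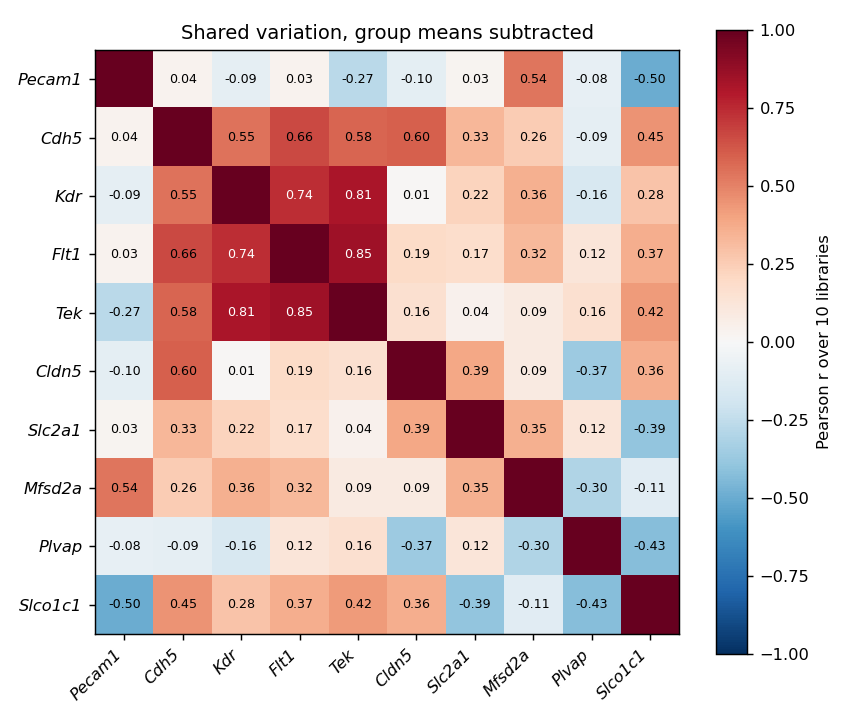
Pearson's r between the log2 CPM of each pair of genes over 10 libraries, with group means subtracted (red positive, blue negative). Kdr, Flt1 and Tek form the block of highest values (0.74 to 0.85), and Pecam1 lies between -0.27 and 0.03 against them.

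The mean standardised deviation of the 6 pan-endothelial genes (Pecam1, Cdh5, Kdr, Flt1, Tek and Cldn5) gave 1 score per library. Its r with these genes, which are part of it, was 0.88 for Flt1, 0.87 for Cdh5, 0.79 for Tek and 0.77 for Kdr. With Cldn5 it was 0.47 and with Pecam1 0.15. The score thus mainly follows Flt1, Cdh5, Tek and Kdr, and its name is only that of the list it was made from. Cldn5 is made throughout brain endothelium and is counted here with the pan-endothelial genes as well as with the barrier genes. The score was highest in wild-type 6 (1.21) and deletion 2 (0.95) and lowest in wild-type 1 (-0.90) and deletion 5 (-0.52). The 10 other genes whose levels were most like this score were Slc22a3 and Slc17a8 (r = 0.95 each), Sulf1 (0.94), Spon1, Csgalnact1 and Lgi3 (0.92 each), Fgl2 and Gpr50 (0.91 each), and Aldh1l1 and Slit2 (0.90 each). They were chosen as the highest of 14215 genes with a mean of at least 1 CPM, over 10 libraries. Without wild-type 6 and deletion 2, their r ran from 0.70 for Spon1 to 0.94 for Lgi3. Slc17a8 encodes a vesicular glutamate transporter, Sulf1 a sulfatase of heparan sulfate, Spon1 F-spondin, Aldh1l1 an enzyme of folate metabolism known as a marker of radial glia and astrocytes, and Slit2 a ligand of Robo receptors.

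The likeness of other endothelial genes to the score varied. For 18 further pan-endothelial genes the median r was 0.07, with 2 above 0.5 (Esam, 0.71, and Eng, 0.60) and 7 below 0. The median over the 14215 genes was 0.0088, with 864 of them above 0.5 and 6933 below 0. Ushbp1 had the lowest value of that list (-0.72). Among 9 genes of caveolae and of tip cells, which lead vessel sprouts, the median was 0.40, with Apln (0.80), Cav1 (0.79), Pdgfb (0.77) and Cxcr4 (0.54) above 0.5. Of 9 neural progenitor markers 4 had an r above 0.5 (Slc1a3, 0.82, Sox2, 0.77, Fabp7, 0.62, and Nes, 0.58). The median of the 9 was 0.43, and Mki67 (0.24), Pax6 (0.15) and Hes5 (-0.18) were the lowest. The summed level of that list had an r of 0.64 with the score. The summed level of the 10 pericyte and smooth muscle markers had an r of 0.78, that of the red cell markers 0.43, that of the 18 further pan-endothelial genes 0.36, and the slope on transcript length 0.03. Taken singly, the 9 tested pericyte and smooth muscle markers had a median r of 0.21, with 1 above 0.5 (Vtn, 0.69) and Tagln lowest (-0.18). Their sum, like the score, was highest in wild-type 6 and lowest in wild-type 1. The r of these sums was not worked out with libraries left out. The part of these cells in the score was not tested.

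In the lists that follow, "higher" and "lower" give only the sign of the log2 ratio. The wider pathways were read from 10 lists of vascular genes that hold 108 different genes, of which 104 were tested. None passed edgeR's test, against 0.0589% of all genes. At an unadjusted p under 0.05, 7 had a positive and 4 a negative log2 ratio (10.6%, against 10.5% of all genes). DESeq2 gave an adjusted p to 36 of the 104 and called 1, Lrp1, against 3.23% of all genes that it gave one, and limma-voom called 0. The groups did not overlap for 4 of the 104 genes (3.85%, against 2.49% of all genes): Wnt7a, Lrp6, Pgf and Ecscr.

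Of the Wnt pathway that induces the barrier, 6 of 13 genes had a log2 ratio above 0 and 7 below (median -0.01). Wnt7a, a ligand made by neural progenitors, stood at 17.9 ± 1.41 CPM over wild-type and 22.1 ± 1.83 CPM over deletion libraries (SD, n = 5; log2 ratio 0.31, SE 0.10), with the lowest deletion library at 20.6 and the highest wild-type library at 19.9 CPM. It did not pass in edgeR (adjusted p = 0.209). Wnt7b, the ligand that acts with it, had a log2 ratio of -0.17 (SE 0.08, adjusted p = 0.473 in edgeR), from 62.7 ± 4.82 to 55.8 ± 6.22 CPM. The 2 ligands of this signal thus leaned in opposite directions. The β-catenin gene Ctnnb1 was the most abundant of the list, at 1148 CPM over wild-type and 1078 CPM over deletion libraries.

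Among 7 tested VEGF ligands and other VEGF receptors, 5 were higher and 2 lower (median 0.05). Pgf, the placental growth factor that binds Flt1, stood at 2.52 to 3.08 CPM over wild-type and 1.54 to 2.50 CPM over deletion libraries (log2 ratio -0.51, SE 0.24, edgeR adjusted p = 0.448). Nrp2, a receptor of VEGF and semaphorins that neurons also make, had the highest level (87.9 ± 21.4 and 104 ± 21.3 CPM) and a log2 ratio of 0.24 (SE 0.19). Of the 4 angiopoietin and Tie partners 3 were higher (median 0.21): Tie1, an orphan receptor that pairs with Tek, had a log2 ratio of 0.20 (SE 0.12), and Ptprb, a phosphatase that acts on Tek, one of 0.22 (SE 0.15). Tie1 was at 0.093 without deletion 4 and Ptprb at 0.075 without deletion 6. The angiopoietin genes Angpt1 and Angpt2, named after their values were seen, leaned in opposite directions, at -0.28 and 0.25. Of 6 endothelial Notch genes 5 were higher (median 0.10), led by Notch1 (0.24, SE 0.11), which neural progenitors also make, and by Dll4 (0.22, SE 0.14), the ligand of tip cells. Notch1 was at 0.11 without deletion 4, and also after removal of the length and GC trend. None of these passed.

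The 16 endothelial transcription factors were evenly split, 8 higher and 8 lower (median -0.03). Epas1, which encodes HIF-2α, stood at 18.5 ± 3.50 and 23.1 ± 1.28 CPM (log2 ratio 0.32, SE 0.12), and Ets2 had a log2 ratio of 0.21 (SE 0.11). Tal1 was the most abundant of the list, at 139 and 141 CPM, and is also a factor of midbrain GABAergic neurons. The 18 other pan-endothelial genes were higher in 11 and lower in 7 cases (median 0.14). Eng, a co-receptor for BMP and TGF-β ligands, stood at 16.5 ± 2.79 and 20.0 ± 1.54 CPM (log2 ratio 0.28, SE 0.12). Ecscr, an endothelial surface protein gene at a low level, stood at 4.24 to 5.33 CPM over wild-type and 2.73 to 3.97 CPM over deletion libraries (log2 ratio -0.50, SE 0.18, edgeR adjusted p = 0.286). Cd93 was the most abundant of this list (25.1 and 27.4 CPM). None of the genes of either list passed.

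Tight junction partners of Cldn5 were higher in 6 and lower in 5 of 11 tested cases (median 0.02), and Tjp1, the ZO-1 scaffold gene, stood at 67.9 ± 3.51 and 74.4 ± 4.49 CPM (log2 ratio 0.13, SE 0.07). Jam2, an adhesion molecule, had a log2 ratio of -0.08 (SE 0.08; -0.075 before rounding). Other barrier transport genes were split 7 and 7 (median -0.03). Among them Lrp1, a receptor that clears ligands and is abundant in neural cells, stood at 345 ± 45.8 and 428 ± 38.7 CPM (log2 ratio 0.31, SE 0.08, edgeR adjusted p = 0.130). DESeq2 called Lrp1 (adjusted p = 0.0190), and edgeR did without wild-type 2 (adjusted p = 0.0455). Over the 19 alternatives its adjusted p ran from 0.0190 to 0.663, with its log2 ratio at 0.18 after removal of the length and GC trend. No other gene of the 104 was called in any of them, though DESeq2 gave no adjusted p to most of the 104. Slc7a5, the large neutral amino acid transporter, had a log2 ratio of 0.24 (SE 0.07, adjusted p = 0.195 in edgeR).

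Of 9 tested genes of caveolae and tip cells 5 were higher (median 0.05), with Pdgfb, which recruits pericytes, at 0.22 (SE 0.13) and Cavin1, a coat protein of caveolae, at 0.16 (SE 0.13) on the log2 scale. Cxcr4 had the highest level of that list (49.8 and 48.5 CPM). Of 9 tested hypoxia response genes 7 were higher (median 0.11), with Slc2a3, the neuronal glucose transporter GLUT3, at 0.14 (SE 0.09) and Ndrg1 at 0.25 (SE 0.16); Hif1a had the highest level (187 and 188 CPM). None of the genes of these lists passed in edgeR.

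**Figure D5:**
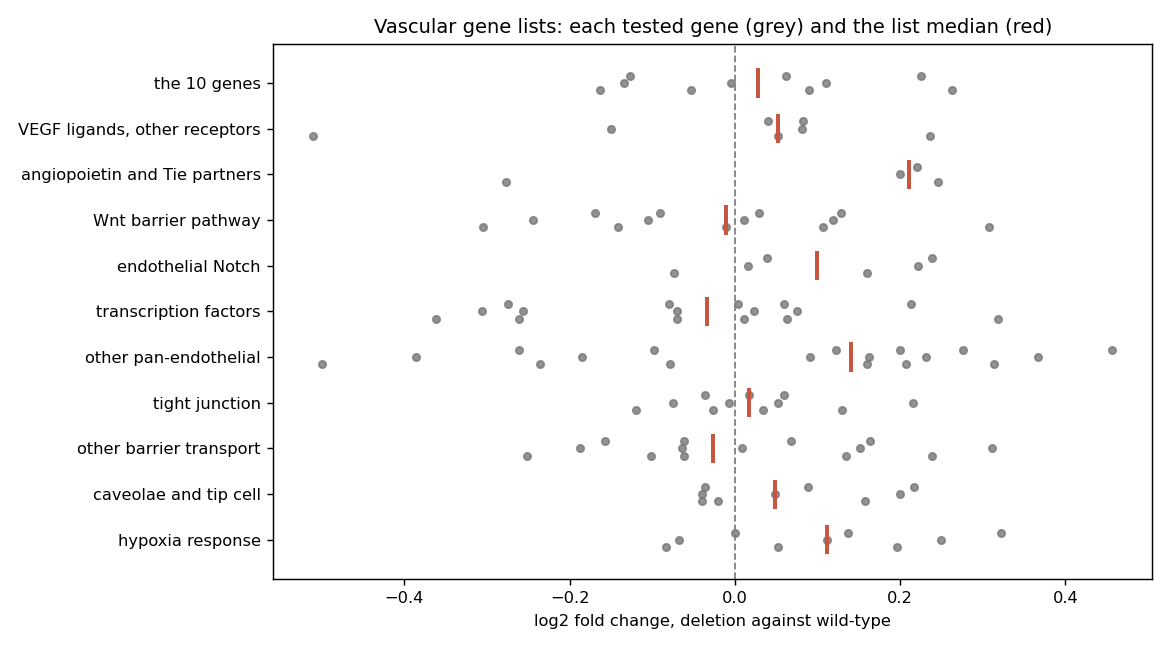
Log2 ratio (deletion against wild-type) of each tested gene of the 10 genes and of 10 vascular lists (grey points), with the list median (red line). The medians lie between -0.03 and 0.21, and none of the genes passed edgeR's test.

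Markers of cells beside the endothelium were read in the same fit, and none of their genes passed edgeR's test either. The 10 pericyte and smooth muscle markers, of cells that wrap the endothelium, summed to 191 to 228 CPM over the wild-type and 200 to 224 CPM over the deletion libraries. Of the 9 tested, 4 were higher and 5 lower: Kcnj8 had a log2 ratio of -0.35 (SE 0.15) and Pdgfrb one of 0.18 (SE 0.11), while Anpep, at 0.44, was the highest. Their lead, Rgs5, stood at 73.0 and 69.4 CPM, and Acta2 reached at most 1.04 CPM. The 11 microglia and macrophage markers summed to 47.6 to 53.0 and 47.6 to 53.3 CPM, with 6 higher and 5 lower. Their 2 smallest p belonged to C1qb (log2 ratio -0.46, SE 0.18) and Trem2 (0.61, SE 0.24), and the groups of Trem2 did not overlap (1.41 to 2.43 and 2.46 to 3.25 CPM). Of the 8 meningeal fibroblast markers, which summed to 16.6 to 18.5 and 15.8 to 23.1 CPM, 4 (Col1a1, Dcn, Lum and Slc6a13) had means under 1 CPM. The 6 choroid plexus markers summed to 5.19 to 8.86 and 7.02 to 8.88 CPM, with Ttr at no more than 0.246 CPM in any library. Choroid plexus and meninges hold windowed vessels that make Plvap, and their part in its level was not tested. Among the red cell markers, Alas2 had a log2 ratio of 0.47 (SE 0.16). The 8 neuron markers summed to 8893 to 9334 and 8296 to 9630 CPM.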

How the data were processed

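Per the labels' protocols, the RNA came from a Direct-zol kit. The authors deposited raw gene counts, made with HISAT2 and featureCounts on mm39, per the submitters' processing notes. Versions, annotation, strandedness and the handling of multi-mapped reads were not given in the sources used here; they decide how overlapping genes are counted. All 10 columns matched a sample, and 30648 of 30935 IDs had a symbol in RefSeq (GRCm38.p6; 287 did not, with 0.0116% of the counts). Transcript lengths came from GENCODE M21 (GRCm38).

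The fit used edgeR 4.0.16 in R 4.3.3: filterByExpr, TMM, a robust quasi-likelihood fit on group alone, a two-sided test per gene, and Benjamini-Hochberg adjustment over 15288 genes at 0.05. The SE is the size of the log2 fold change divided by the square root of F. Log2 CPM used a prior count of 2. The fit was tested on simulated data. P-values set the difference between the groups against the spread between these samples, estimated with information shared over genes. With litters not given, they cannot be read as covering the spread between litters. No pair of libraries of a group agreed within sampling noise (lowest chi-square per degree of freedom 5.78), so 5 per group were kept. Alternatives were RLE and upper-quartile scaling, no filter, a filter of 1 CPM in 5 libraries, a replicate block, DESeq2 1.42.0, limma-voom (limma 3.58.1), removal of each library's spline trend on transcript length or on length and GC content, and leaving out each library. In the replicate block the group difference rests on numbers 2, 4, 5 and 6, which both groups hold.

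The members, lists and alternatives were chosen with earlier results of these data known. The genes named outside the 10 were drawn from the 2 with the smallest p and the 1 with the highest mean of each list, and the 10 most like the pan-endothelial score among genes with a mean of at least 1 CPM; other genes are named after their values were seen. Not all genes that the rule gave for the lists of other cell types are printed. For a gene named only for its level, no fold change is given.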

Additional observations from a re-analysis of the deposited data

Results flagged for a closer look

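Within a group of 5, a library was set apart where its gap to the nearest other exceeded 0.710 of the group's range. This was looked for in 65 named genes, or 130 groups, and held in 8 (6.15%), where chance gives about 1 in 20. That rate is for groups drawn at random, and the named genes were chosen by their values, so the comparison is no test. None of the 8 was in the 10 endothelial and barrier genes. Sulf1, Spon1 and Slit2, which were named for following the pan-endothelial score, stood at 155, 128 and 78.6 CPM in deletion 2, against at most 101, 84.2 and 61.4 CPM in the other deletion libraries. The score was also highest of that group in deletion 2 (0.95), so a high level there follows in part from how these genes were chosen. Deletion 4 was high for Lrp1 (495 CPM, the others 395 to 419), Hba-a1 (1170 CPM, the others 858 to 914) and Tubb3 (2839 CPM, the others 2310 to 2334). Wild-type 2 was high for Itga2b (4.98 CPM, the others 3.19 to 3.59), and wild-type 4 for Dcn (1.05 CPM, the others 0 to 0.260).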

How the results depend on the processing

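Over 19 alternatives, none of the 10 genes passed in any fit that gave it an adjusted p. DESeq2 gave none to Cdh5, Flt1, Tek and Plvap. The lowest adjusted p was 0.208, for Flt1 without deletion 4 in edgeR. Pecam1, Cdh5, Flt1, Cldn5, Slc2a1, Mfsd2a and Slco1c1 kept their direction in all 19, but not their size. Over the fits that leave out 1 library they ran from -0.20 to -0.11, 0.17 to 0.29, 0.16 to 0.38, -0.18 to -0.090, 0.040 to 0.14, 0.042 to 0.17 and -0.18 to -0.078, in that order, and Cldn5 was at -0.030 with the length trend removed. Kdr turned to -0.015 on the log2 scale after removal of the length and GC trend, and ran from -0.0015 to 0.15 over the fits that leave out 1 library. Tek ran from -0.12 to 0.0033 and Plvap from -0.23 to 0.23 over those fits. Plvap also turned to 0.013 with the replicate block, 0.056 with the length trend removed and 0.051 with the length and GC trend removed. For these 3 genes no direction can be read. The cause was not tested. The 35 other genes chosen by p kept their direction in all 664 values that the alternatives gave for them. They were chosen by p in the main fit on the same libraries, so a kept sign adds no support. Of the 35, 20 moved by over 1.5 times in 1 or more fits. Of the 20 of them in vascular lists 11 did so, among them Tjp1 (0.055) and Slc2a3 (0.069) after removal of the length and GC trend and Cavin1 (0.058) without wild-type 1. Lrp1 was called in 2 fits, at 0.31 in DESeq2 and 0.37 without wild-type 2. The 10 vascular lists thus held 0 to 1 called gene over the fits without a library, and 1 in DESeq2.

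The count over all genes was 9, and 15 with upper-quartile scaling (3 higher, 12 lower), 69 with no filter (26 and 43), 261 in DESeq2 (134 and 127), 18 with the length and GC trend removed (7 and 11), and 0 with the length trend removed, in limma-voom or with the replicate block. It ran from 0 to 357 when 1 library was left out, 357 without deletion 4 and 88 without wild-type 2. The replicate numbers showed no sign of pairing the libraries. Same-numbered libraries had correlations of -0.08, -0.13, -0.06 and 0.12 in their deviations for numbers 2, 4, 5 and 6. Of 4 wild-type libraries, 0 correlated best with the deletion library of the same number. These 4 correlations cannot exclude a weak effect of a shared litter or batch. Under the replicate block Cdh5 was at 0.15 and Flt1 at 0.18, and no gene of the 10 passed. That fit in effect leaves wild-type 1 and deletion 3 out of the group difference, as neither has a partner of its number. Nrp2 was at 0.090, Jam2 at -0.019, Pdgfb at 0.10 and Ndrg1 at 0.12 under that block. Depth limits Plvap most, at 34 to 92 counts per library.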

Other observations

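Of the 45 ratios between pairs of the 10 genes, 1 had groups that did not overlap: Cldn5 counts per Cdh5 count were 2.35 to 3.05 in the wild-type and 1.88 to 2.35 in the deletion libraries, apart only in the next decimal place. The ratio was picked as the extreme of 45 and has no test. The longest transcripts of the pair differ in length (1416 bases for Cldn5, 3995 for Cdh5). The ratio was taken from counts with no length trend removed, and the part of that trend in it was not tested. Among single genes, 2.49% of all tested had groups that did not overlap. The share over ratios of other gene pairs was not worked out. Pecam1 counts per Cdh5 count were 1.23 to 1.67 in the wild-type and 0.994 to 1.40 in the deletion libraries, with overlap. The summed level of the 10 genes was 246 to 288 CPM in the wild-type and 251 to 287 CPM in the deletion group, highest in wild-type 6 and deletion 2.

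Within the Wnt list, 3 genes ran against the pan-endothelial score over the 10 libraries: Lrp6, a Wnt co-receptor (r = -0.84), Lef1, a transcription factor of the pathway (-0.73), and Axin2, its feedback inhibitor (-0.72). Nrp2 (0.86) and the oxygen-dependent enzyme gene Egln3 (0.85) ran with it. These genes were picked after their values were seen, each is also made by neural cells, and no test was made.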
